A study of Homo sapiens with 2 samples.

Results

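The genes described are 8 with roles in axon guidance, ion channels, synapses or neural development, or grouped with such genes, that were listed as changed in a hepatocellular carcinoma line with lowered caveolin-1. THSD7A and BCHE are known at least as well from other tissues. The 8 are ROBO2, CNTN3, GRIK2, TRPC4, THSD7A, BCHE, CHODL and SIM1. They were chosen by name from the authors' deposited tables of probe sets that differed at least 2-fold, so the measured difference itself selected them, and all values of that difference below are a description. The 8 genes hold 13 of the 218 listed probe sets that carry 1 gene symbol, and they are 8 of the 190 genes so named. CHODL, BCHE, ROBO2, CNTN3 and SIM1 had 1 listed probe set each, TRPC4 and GRIK2 had 2 each, and THSD7A had 4. All 13 were in the table of higher probe sets. A further probe set of these genes that stayed under 2-fold has no gene name in the tables used here.

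The study compared 2 samples of the Hep3B line, grown in DMEM-HG medium. One carried a short hairpin RNA against caveolin-1 (shCav1) and the other a control hairpin with no target (shCtl). Hep3B is an established line from a human liver cancer. CAV1 is the gene of caveolin-1, a coat protein of caveolae, the flask-shaped pits of the plasma membrane. Each sample was measured on 1 Affymetrix HG-U133 Plus 2.0 array, so the values below carry no test, no p-value and no replicate error. Whether each hairpin line is 1 clone or a pool is not stated in the labels. What follows from less CAV1 and what follows from any other difference between the 2 samples cannot be told apart, and in such bulk RNA a change in the number of cells that express a gene cannot be told apart from a change per cell.

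Slit proteins are secreted cues that repel growing axons through Robo receptors, and contactins are adhesion proteins that hold axons and their partners together. Kainate receptors are glutamate-gated ion channels of the synapse, and TRPC channels let calcium and sodium into cells after receptor activation. Cholinesterases split choline esters. One of them, butyrylcholinesterase, is also an ordinary secreted product of hepatocytes, so not every gene of the group is foreign to liver.

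The hairpin target was checked first. Probe set 212097_at read CAV1 in shCav1 at 6.61% of its shCtl signal, and 203065_s_at read it at 7.38%, which matched the labels of both samples. Of the 54613 probe sets of the array other than controls, 152 passed the 2-fold limit upwards in shCav1 (0.278%) and 92 passed it downwards (0.168%). That split turned to 108 higher and 157 lower when differences were centred on 18 probe sets for bacterial hybridization spikes, whose log2 differences were all above 0, with a median of 0.14. The robust SD of the log2 difference over all probe sets was 0.19, and its median was 0. This spread is across probe sets on 1 pair of arrays and is no replicate error. The median over the 13 probe sets of the 8 genes was 1.51, beside 1.27 over all 152 listed higher ones. Since the choice of the genes used this contrast, nothing is read from these figures.

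Some upstream sequences are shown first, because the DNA before the start sites of the 8 genes is of very different kinds. RefSeq windows of 250 bases upstream of an annotated start (GRCh38.p14) were found for all 8 genes, 12 windows in all. CHODL, GRIK2, ROBO2 and SIM1 have 2 starts each in that table. The windows below are printed 5′ to 3′ on the gene's strand, with every CG dinucleotide in capitals. They are those of CHODL, which had the largest difference, of BCHE and CNTN3, which hold the fewest and the most CG dinucleotides of the group, and of SIM1, the transcription factor among the 8.
CHODL, chr21:18244583-18244832, plus strand: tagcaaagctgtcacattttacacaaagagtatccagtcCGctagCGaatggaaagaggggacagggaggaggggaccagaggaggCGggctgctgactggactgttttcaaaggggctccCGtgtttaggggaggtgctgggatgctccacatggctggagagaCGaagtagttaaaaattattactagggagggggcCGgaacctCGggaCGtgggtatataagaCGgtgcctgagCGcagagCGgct
BCHE, chr3:165837424-165837673, minus strand: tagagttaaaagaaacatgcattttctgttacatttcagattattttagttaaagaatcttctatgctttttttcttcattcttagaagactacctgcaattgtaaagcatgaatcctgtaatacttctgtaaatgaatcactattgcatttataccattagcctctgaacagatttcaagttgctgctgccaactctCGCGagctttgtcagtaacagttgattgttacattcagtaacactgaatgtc
CNTN3, chr3:74614660-74614909, minus strand: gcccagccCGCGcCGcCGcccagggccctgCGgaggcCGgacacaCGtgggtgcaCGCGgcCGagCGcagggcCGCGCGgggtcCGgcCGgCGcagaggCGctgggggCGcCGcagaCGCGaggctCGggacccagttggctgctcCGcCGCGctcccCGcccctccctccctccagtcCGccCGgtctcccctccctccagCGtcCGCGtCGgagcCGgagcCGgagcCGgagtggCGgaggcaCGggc
SIM1, chr6:100464922-100465171, minus strand: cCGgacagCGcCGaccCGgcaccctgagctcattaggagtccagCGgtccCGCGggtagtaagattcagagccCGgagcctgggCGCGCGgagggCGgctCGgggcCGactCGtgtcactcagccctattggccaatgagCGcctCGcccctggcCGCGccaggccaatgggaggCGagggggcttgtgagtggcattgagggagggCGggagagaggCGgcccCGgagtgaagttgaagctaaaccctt

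The CNTN3 window held 38 CG dinucleotides and was 81.6% G and C. The BCHE window held 2 and was 33.2% G and C. The window of CHODL held 11 and that of SIM1 23. The remaining windows lay between these ends: 15 for THSD7A, 17 for TRPC4, 9 and 25 for the GRIK2 starts, 7 and 27 for the ROBO2 starts, 25 for the other SIM1 start and 10 for the other CHODL start. The median over the 12 windows was 16. It was 11 over all 35116 windows of the table, 9 over 132 windows of the other listed higher genes and 23 over 87 windows of the listed lower genes. The members thus span both CG-poor and CG-rich starts, and which start Hep3B cells use was not measured.

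Short motifs were searched on both strands of the same 250 bases, and were chosen after the sequences had been seen. ACGTG, the core bound by dimers of the protein family of SIM1, was found upstream of CHODL, CNTN3 and GRIK2, in 3 of the 12 windows, and in 18.5% of all windows. In CHODL it lay 39 to 35 bases before the start. In CNTN3 matches on opposite strands overlapped, at 207 to 203 and 206 to 202 bases before the start. The letters GGACAGNGC, the right-hand part of the element bound by the neuronal gene repressor REST, were found upstream of SIM1 alone among the 8 genes, as GGACAGCGC at 248 to 240 bases before the start, and in 1.83% of all windows. The left-hand part, TTCAGCACC, was in none of the 12 and in 0.288% of all. CAGCTG, a core of E-boxes, occurred 2 times before THSD7A and in 13.99% of all windows, and TATAAA once, on the opposite strand, before BCHE and in 10.7% of all. Only the exact letters were searched, so a near form such as the tatataa in the CHODL window shown above was not counted. These matches describe letters only. The binding of any factor was not measured.

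Values in the paragraphs that follow are linear signals, taken to be on the scale of RMA, which was not tested. RMA is the usual background correction, quantile normalization and summary of Affymetrix probes. The shCtl signal was deposited, and the shCav1 signal was computed from it and the deposited difference. The median signal of the shCtl array was 30.6, and a probe set below it is called dim. Probe sets differ in how well they bind, so a brighter probe set does not show a more abundant transcript.

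Among the surface receptors and adhesion molecules, ROBO2, a receptor for Slit proteins, was measured by 226766_at with a signal of 78.0 in shCtl and 204 in shCav1. Both samples were above the array median. The log2 difference was 1.39, which is 2.61-fold. CNTN3, a contactin tethered to the membrane by a lipid anchor and known in the rat to promote neurite outgrowth, had 47.7 in shCtl and 105 in shCav1 at 229831_at. Its difference, 1.14 on the log2 scale or 2.20-fold, was the smallest of the group and the member value nearest to the 2-fold limit from the inside. The next was THSD7A at 229159_at with 2.41-fold. Probe sets just outside the limit are unnamed here.

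CHODL encodes chondrolectin, a membrane protein with a C-type lectin domain that is needed for motor axon growth in zebrafish. Its probe set 219867_at read 281 in shCtl and 2114 in shCav1. That is a log2 difference of 2.91, or 7.52-fold, and the largest of the 13. On the shCtl array the probe set stood at percentile 83.4 of all probe sets and on the shCav1 array at percentile 96.8. Adding a pseudocount of 16 to both signals left the log2 difference at 2.84.

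**Figure D1:**
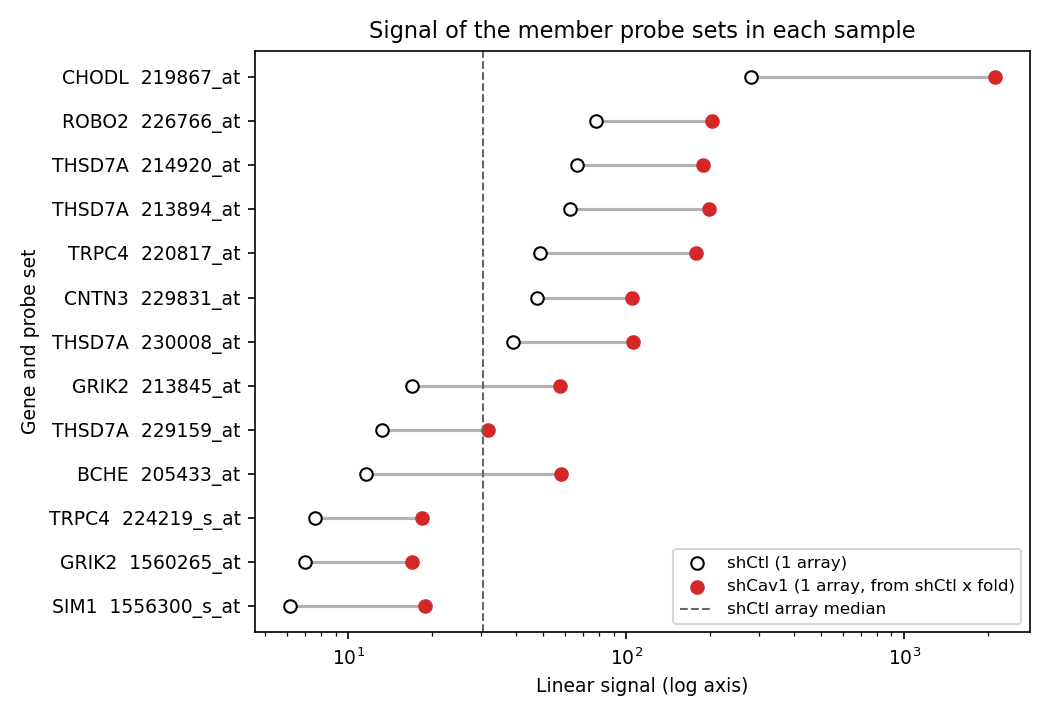
Linear signal (log axis) of the 13 listed probe sets of the 8 genes, with an open circle for the shCtl array and a red one for the shCav1 array, 1 array each, joined by a grey line; the dashed line is the shCtl array median of 30.6. All 13 red points lie to the right of their open circle, and SIM1, 1 probe set of GRIK2 and 1 of TRPC4 stay left of the dashed line in both samples.

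THSD7A, a membrane protein with thrombospondin type 1 repeats that is known from endothelium and kidney podocytes, was the gene with the most listed probe sets. The signals in shCtl and shCav1 were 66.3 and 188 at 214920_at, and 62.6 and 198 at 213894_at. They were 39.3 and 105 at 230008_at, and 13.3 and 31.9 at 229159_at. All 4 were higher in shCav1, and only 229159_at was dim in shCtl. The log2 difference averaged 1.46 ± 0.16 (SD over 4 probe sets read on the same arrays, a technical spread). The gene is on the minus strand of chromosome 7, and the deposited alignments, of unstated genome build, place the 4 probe sets one after another from its 3′ end.

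The log2 difference of THSD7A was smallest at the 3′-most alignment and larger at each step towards the 5′ end. It was 1.27 at positions 11410061 to 11411457, 1.42 at 11411376 to 11412000, 1.51 at 11411837 to 11414425 and 1.66 at 11414073 to 11633050. The last of these alignments spans 218978 bases, and where in it the probes lie is not known here. The array's own controls for beta-actin moved the other way, with a log2 difference of -0.88 at the 5′ probe set, -0.45 in the middle and -0.22 at the 3′ probe set. For GAPDH the values were -0.24, -0.15 and -0.05. Both controls thus differed between the arrays by more at the 5′ end. What this means for RNA quality or for the other probe sets was not tested. In the same order from the 3′ end the shCtl signal of THSD7A was 13.3, 39.3, 66.3 and 62.6, so it was higher at each of the first steps and not at the last. The part of transcript position or level in this order was not tested.

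**Figure D2:**
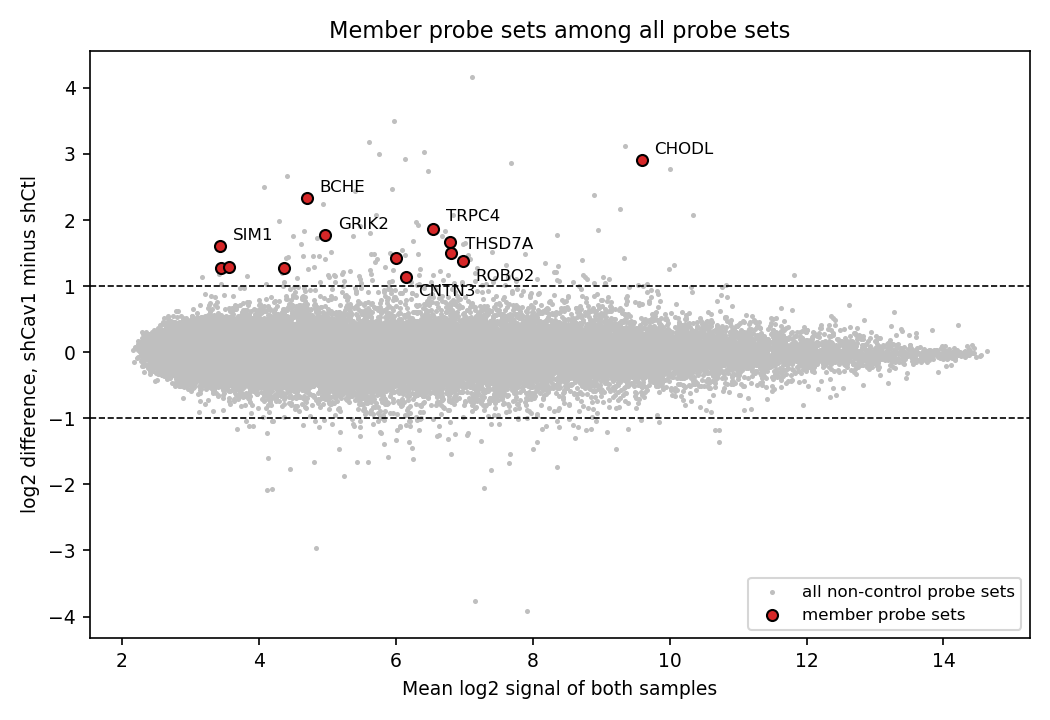
Log2 difference (shCav1 minus shCtl) against the mean log2 signal of both samples for all 54613 non-control probe sets (grey) and the 13 listed probe sets of the 8 genes (red, gene names at the probe set with the highest shCtl signal); dashed lines mark 2-fold. The red points lie between 1.14 and 2.91, over a band of grey points with a robust SD of 0.19.

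Of the ion channels, TRPC4, a subunit of a cation channel opened downstream of receptors coupled to phospholipase C, was listed at 2 probe sets. At 220817_at the signal was 49.0 in shCtl and 179 in shCav1, a log2 difference of 1.87 or 3.64-fold. At 224219_s_at it was 7.58 and 18.4, dim in both samples, with a difference of 1.28. The deposited alignments of both cover nearly the same stretch of the minus strand of chromosome 13, from 38210794 to 38443935 and from 38211001 to 38443939. The probe sets of this gene disagreed in size by more than those of the other 2 genes with several, with a mean of 1.57 ± 0.41 (SD over 2 probe sets).

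GRIK2 encodes GluK2, a pore-forming subunit of kainate receptors. At 213845_at its signal was 16.9 in shCtl and 58.0 in shCav1, which crossed the array median, with a log2 difference of 1.78 or 3.43-fold. At 1560265_at the signals were 7.0 and 16.9, dim in both, with a difference of 1.27. The first aligns from 101847153 to 102517951 on the plus strand of chromosome 6 and the second to 102266317 to 102338670, inside it, in the deposited alignments. The mean was 1.53 ± 0.36 (SD over 2 probe sets).

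BCHE, the gene of butyrylcholinesterase, read 11.6 in shCtl and 58.3 in shCav1 at 205433_at. It moved from percentile 22.3 of the shCtl array to percentile 63.4 of the shCav1 array. The log2 difference was 2.34, or 5.05-fold, and the pseudocount of 16 reduced it to 1.43. SIM1, a transcription factor that is required in the mouse for neurons of the paraventricular hypothalamus, read 6.19 in shCtl and 18.9 in shCav1 at 1556300_s_at. Both values are dim, at percentile 2.71 and percentile 36.9 of their arrays. Its log2 difference was 1.61 on these dim values, and the pseudocount reduced it to 0.65, under 2-fold.

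Brightness divided the 13 probe sets. Both samples were above the array median for 7 of them, at CHODL, ROBO2, CNTN3, 1 probe set of TRPC4 and 3 of THSD7A. The signal crossed the median for 3, at BCHE, 213845_at of GRIK2 and 229159_at of THSD7A. It was below the median in both for 3, at SIM1, 1560265_at of GRIK2 and 224219_s_at of TRPC4. These 3 were in the lowest of 4 equal groups of probe sets by mean level, where 6 of 13653 were at least 2-fold higher (0.0439%). In the next 3 groups the share was 0.183%, 0.513% and 0.374%. With no detection call used here, whether these 3 probe sets read a transcript at all in shCtl was not tested. Of all 152 listed higher probe sets, 58 were below the median in shCtl (38.2%).

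Under the pseudocount of 16, 8 of the 13 stayed past 2-fold. The others were CNTN3 at a log2 difference of 0.92, THSD7A at 229159_at, SIM1, 224219_s_at of TRPC4 at 0.55 and 1560265_at of GRIK2 at 0.52. CNTN3 and SIM1 were thus the genes with no probe set past 2-fold in that setting. After centring on the hybridization spikes all 13 stayed past it, CNTN3 with 1.001 at the limit.

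**Figure D3:**
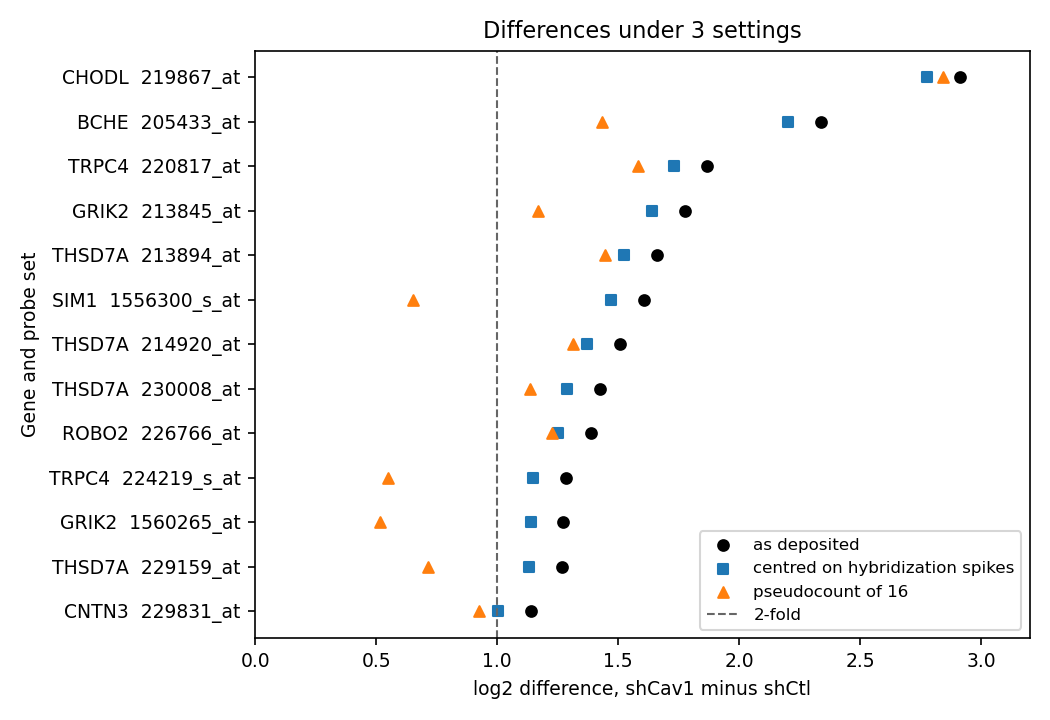
Log2 difference (shCav1 minus shCtl) of each of the 13 probe sets as deposited (black circles), centred on the hybridization spikes (blue squares) and with a pseudocount of 16 (orange triangles); the dashed line is 2-fold. All points are above 0, and 5 of the orange triangles lie left of the dashed line.

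Gene length was not itself used in the choice, but it goes with the type that most of the genes were picked for. In RefSeq (GRCh38.p14), ROBO2 lies at 75906675 to 77649964 of chromosome 3 and spans 1743 kb, and only 0.0548% of 20056 protein-coding genes are longer. GRIK2 spans 676 kb, THSD7A 462 kb, CNTN3 352 kb, CHODL 350.03 kb and TRPC4 238 kb. SIM1 with 79.9 kb and BCHE with 64.5 kb are the short ones. By these spans of whole gene records, 6 of 8 exceeded 200 kb, with a median of 351.1 kb. The CHODL record begins at 17917340 and ends at 18267370, while its upstream windows begin at 18244583 and 18245625, near that end. From those starts CHODL would be far under 200 kb. The upstream windows of ROBO2 begin at 76310630 and 77039849, inside its record. From those starts ROBO2 would also be shorter than the span and rank given above. The share over 200 kb was 21.8% among 110 other listed higher genes, 14.9% among 67 listed lower genes and 6.98% among all protein-coding genes, with medians of 63.1, 50.2 and 24.1 kb. Genes of neuronal type are known to be long, and most of these 8 were picked for that type, so the lengths carry no test.

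**Figure D4:**
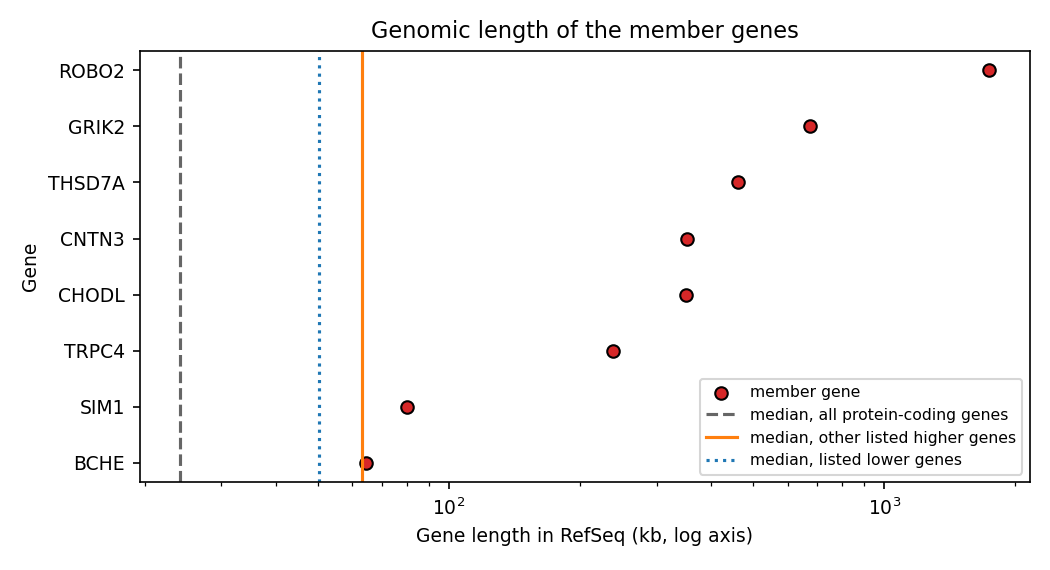
Genomic length in RefSeq (kb, log axis) of the 8 genes (red points), with the median of all protein-coding genes (dashed grey, 24.1 kb), of the other listed higher genes (orange, 63.1 kb) and of the listed lower genes (dotted blue, 50.2 kb). All 8 points lie to the right of the 3 medians, BCHE with 64.5 kb just beyond the orange line. Lengths are spans of whole gene records.

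Some of the genes are near each other. CNTN3 and ROBO2 share band 3p12.3 in the deposited alignments. In GRCh38.p14 they are 1.29 Mb apart, with 2 protein-coding genes between them, FRG2C and ZNF717. SIM1 and GRIK2 share band 6q16.3 and are 0.929 Mb apart, with ASCC3 between them. None of these 3 intervening genes was among the 190 genes named by 1 symbol in the deposited tables. Smaller differences of theirs could not be looked up. How often other listed genes lie this close was not counted, so nothing is read from the distances. BCHE lies on the long arm of chromosome 3, THSD7A on chromosome 7, TRPC4 on chromosome 13 and CHODL on chromosome 21.

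The cellular component terms of the deposited tables place 7 of the 8 genes at a membrane, all but SIM1, which is annotated to the nucleus. The term was held by 43.9% of 98 other listed higher genes with an annotation. The narrower term "integral to membrane" was held by CHODL, GRIK2, ROBO2, THSD7A and TRPC4, which is 5 of 8, and by 35.7% of the other higher genes. BCHE alone among the 8 was annotated to the extracellular region, beside 26.5% of the other higher genes. Receptors, channels and adhesion molecules are membrane proteins, so the choice by type favoured the membrane terms. Nothing is read from these shares.

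Relatives of the 8 genes, from 10 lists with 173 entries, were looked up among the 218 listed probe sets that carry 1 gene symbol. Listed probe sets with no symbol or with several were not searched. Of the 173 entries, 4 were in the table of higher genes and 1 in that of lower genes, where 0.278% and 0.168% of all probe sets were listed. A rate per gene could not be computed, since most probe sets have no gene name here, so nothing is read from these counts. No member of the Slit and Robo pathway (15 genes), the TRP channels (19), the thrombospondin type 1 proteins (11), the cholinergic genes (10) or the bHLH-PAS factors (16) was listed. Thus neither the Slit ligands of ROBO2 nor ARNT2, the partner of SIM1, was among these 218 probe sets. Smaller differences were not looked up, since unlisted probe sets have no gene names here.

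GRIA3, a subunit of AMPA-type glutamate receptors, was listed among 21 glutamate receptor genes and partners. Its signal was 35.8 in shCtl and 101 in shCav1, a log2 difference of 1.49. L1CAM, an adhesion molecule of axons, was listed among 16 contactin and L1-type genes, with 12.3 and 41.5 and a difference of 1.75. NLGN1, which bridges synapses as a ligand of neurexins, was listed among 19 synaptic adhesion genes, with 16.01 and 34.9 and a difference of 1.12. The fourth was MBL2, a lectin secreted by liver, among 11 C-type lectins, with 26.02 and 55.0 and a difference of 1.08. L1CAM, NLGN1 and MBL2 were dim in shCtl. SEMA6A, a membrane-bound semaphorin, was the lower one, among 35 other guidance genes, with 22.2 in shCtl and 10.3 in shCav1. It was dim in both samples, with a difference of -1.11. The guidance receptor EPHA3 was not in that list and was higher in shCav1, with a difference of 1.93. With the pseudocount of 16, NLGN1 at 0.67, MBL2 at 0.76 and SEMA6A at -0.54 were under 2-fold, while GRIA3 at 1.17 and L1CAM at 1.02 were not. After centring on the spikes NLGN1 at 0.99 and MBL2 at 0.94 were under it too.

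Markers of neurons and of other cell types were looked up among the same 218 listed probe sets with 1 gene symbol. None of 12 neuron markers, such as MAP2, SYP and SNAP25, was listed past 2-fold in either direction, nor were any of 7 glial and 5 neuroendocrine markers. The same held for 10 hepatocyte, 8 stellate cell and fibroblast and 6 endothelial markers. Since only 0.278% and 0.168% of all probe sets were listed as higher and lower, nothing is read from the absence of these 48 markers. The marker levels are not given, because unlisted probe sets have no gene names here, so the grouping rests on what the 8 genes are known for and not on a measured cell identity.

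The listed probe sets most like each gene in shCtl level and difference together were found by distance on the log2 scale, over 2 samples. For ROBO2 the nearest gene was PRSS35 at a distance of 0.087, and for CNTN3 it was AGPAT9 at 0.14. For GRIK2 it was LIPG at 0.104, for TRPC4 IRX3 at 0.19 and for THSD7A PGAM2 at 0.201. CHODL, BCHE and SIM1 stood further off. The nearest to CHODL was the uncharacterised LOC400043 at 0.404, and to BCHE it was TRIM59 at 0.294. The nearest to SIM1 were the dim probe sets of GRIK2 at 0.376 and TRPC4 at 0.435, and outside the group CTSS at 0.464. EPHA3, an Eph receptor of axon guidance, was among the 3 nearest to TRPC4, with 41.2 in shCtl and 157 in shCav1.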

How the data were processed

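Total RNA from 2 Hep3B samples was extracted with Trizol, labelled with biotin and hybridized to 1 array each, per the labels' protocols. RMA is the tool named in the submitters' processing notes, with the version not given in the sources used here. In the deposited series matrix each probe set has a log2 value per sample, centred by the authors on the mean of both. The authors' deposited tables give a log2 difference and a linear ratio (fold) for 244 probe sets. A deposited table gives linear signal intensity, per the file headers, and its column named as control was taken as shCtl, while 1 column with a name in no label was left unused.

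The log2 difference is shCav1 minus shCtl, and it equalled the authors' value for the 13 probe sets within 1e-05. The shCav1 signal is the shCtl signal multiplied by the fold, as if both tables shared a scale, which was not tested. The 62 control probe sets were left out and no brightness filter was set. The limit was 2-fold. Alternatives were limits of 1.5-fold and 3-fold, filters at the median and the 75th percentile of the brighter array, a pseudocount of 16, centring on the median or the spikes, loess (span 0.3, statsmodels 0.14.6) and means over probe sets. The number of arrays limits the precision. Samples were grouped by title. The counting was tested on simulated data. Named genes are the 8 members, CAV1, listed genes of the lists and the nearest probe sets. The members, lists and alternatives were chosen with earlier results of these data known. Upstream sequences and gene spans are from RefSeq, GRCh38.p14, which were not combined with the deposited alignments. All 8 Entrez identifiers matched. Python 3.11.15 was used.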

Additional observations from a re-analysis of the deposited data

How the results depend on the processing

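All 13 probe sets of the 8 genes stayed higher in shCav1 under the pseudocount, both centrings and loess, and all 13 moved by less than 0.19 on the log2 scale under the centrings and loess. The pseudocount of 16 moved 11 of them by more, all towards 0. The count of the 13 past the limit was 13 at 1.5-fold and 6 at 3-fold, 8 with the pseudocount, 10 with a filter at the median and 5 with a filter at the 75th percentile, which leaves fewer probe sets. Over all probe sets, against 152 higher and 92 lower, there were 675 and 707 at 1.5-fold, 43 and 17 at 3-fold, 79 and 43 with the filter at the 75th percentile, 91 and 49 with the pseudocount, and 108 and 157 after centring on the spikes. The mean over listed probe sets, instead of the brightest, gave 1.57 instead of 1.87 for TRPC4, 1.53 instead of 1.78 for GRIK2 and 1.46 instead of 1.51 for THSD7A. No paired analysis was possible because there was 1 sample in each group. Low signal over background limits SIM1, BCHE and the dim probe sets of GRIK2, TRPC4 and THSD7A.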

Other observations

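Further genes known from axons and synapses were in the deposited tables but in none of the lists, and were picked after their values were seen. PTPRS, a receptor phosphatase of axons and synapses, had a signal of 40.0 in shCtl and 117.0 in shCav1, a log2 difference of 1.55. Its relative PTPRD had 13.3 and 30.7, a difference of 1.203, and was dim in shCtl. CBLN2, a secreted organizer of synapses, was bright in both samples, with 183 and 393 and a difference of 1.11. PRTG, a membrane protein of the immunoglobulin superfamily, had 98.0 and 206 and a difference of 1.07. KCNJ3, a potassium channel subunit, had 14.5 and 29.04, dim in both samples and at the 2-fold limit. The direction was not shared by all such genes. AMIGO2, an adhesion protein first described in neurons, was at 43.3% of its shCtl signal, from 824 to 357. SLC6A15, a neutral amino acid transporter of brain, was at 48.7%, from 106 to 51.8. Under the pseudocount of 16 the differences of PTPRD, KCNJ3, PRTG and SLC6A15 were 0.67, 0.56, 0.96 and -0.85, under 2-fold, while those of PTPRS, CBLN2 and AMIGO2 were 1.248, 1.04 and -1.17.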
